A study of Mus musculus with 7 samples.

Results

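Box H/ACA small nucleolar RNAs (snoRNAs) were taken as all transcripts whose symbol starts with SNORA, ignoring case, in the CIRS-seq counts of mouse embryonic stem cells (ESCs). There were 166 of them among the 26827 transcripts listed, under 73 symbols. CIRS-seq maps the points at which reverse transcription (RT) stops next to chemically modified bases of RNA. The cells were E14 mESC of strain 129/Ola, and their lysate was treated with Proteinase K before probing, so the RNAs were probed without their proteins. DMS, dimethyl sulfate, was used from 50 to 200 mM and mainly marks unpaired A and C, and CMCT, a carbodiimide, was used from 10 to 50 mM and mainly marks unpaired U and G. The doses of a reagent were pooled, and the 0 mM aliquots of both reagents were pooled as the non-treated (NT) control, which has 2 biological replicates like DMS and CMCT. RNA-seq was made as 1 library. In it, the 10 stem cell markers examined had 3.73 (Utf1) to 221 (Dppa5a) RPKM, alignments per kilobase of exon scaled to the size of the library, the 5 fibroblast markers at most 0.235, and the 8 germ layer markers at most 3.05 (Gata6), with Afp at 0.

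H/ACA snoRNAs guide the change of uridine to pseudouridine, mostly in ribosomal RNA. Each folds into a pair of hairpins joined by a single-stranded hinge that carries the H box (ANANNA), and ends in a tail with the ACA box. Internal loops of the hairpins pair with the target and leave its uridine exposed to the enzyme Dkc1, which works with Nhp2, Nop10 and Gar1. Most are cut out of introns of host genes for proteins of the ribosome or of translation. U17 (Snora73) is an exception, as it is needed for the processing of the precursor of 18S rRNA.

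The sequences of 6 members are shown because these are the deepest in their lowest library with both boxes. Some of the reactive bases described below lie in and around the H box. The capitals mark the H box in the middle and the ACA box at the end. The ACA box lies in the last 25 nucleotides, which carry no RT stop, so it was not measured. The sequences were read from mm9 (NCBI m37) at the GENCODE vM1 coordinates, and U stands for T. SNORA4 (chr16:23111690-23111828, + strand) and SNORA63 (chr16:23111374-23111502, +) lie in Eif4a2, which encodes a helicase of translation initiation. SNORA51 (chr2:130101973-130102105, +) lies in Nop56, which encodes a core protein of the other snoRNA class, and Snora64 (chr17:24857717-24857850, +) in Rps2, which encodes a ribosomal protein. These 4 overlap an exon of some annotated isoform of the host. SNORA14 (chr8:129468747-129468880, −) lies in an intron of Tomm20, which encodes a mitochondrial import receptor, and Snora73a (chr4:131908690-131908894, −) overlaps an exon of Rcc1, which encodes the exchange factor of Ran.
SNORA4: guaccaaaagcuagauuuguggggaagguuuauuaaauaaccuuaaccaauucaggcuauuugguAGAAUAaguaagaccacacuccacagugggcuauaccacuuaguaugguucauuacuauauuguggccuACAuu
SNORA63: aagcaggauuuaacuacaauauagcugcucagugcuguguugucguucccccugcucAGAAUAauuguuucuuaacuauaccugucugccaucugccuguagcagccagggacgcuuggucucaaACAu
SNORA51: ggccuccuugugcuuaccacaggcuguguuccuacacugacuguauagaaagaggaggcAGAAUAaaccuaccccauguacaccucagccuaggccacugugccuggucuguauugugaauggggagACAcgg
Snora64: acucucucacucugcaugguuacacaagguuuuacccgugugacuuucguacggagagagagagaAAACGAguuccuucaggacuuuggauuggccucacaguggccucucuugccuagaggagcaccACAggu
SNORA14: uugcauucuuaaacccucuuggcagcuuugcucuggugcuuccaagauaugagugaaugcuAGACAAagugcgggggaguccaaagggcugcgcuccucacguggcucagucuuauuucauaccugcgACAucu
Snora73a: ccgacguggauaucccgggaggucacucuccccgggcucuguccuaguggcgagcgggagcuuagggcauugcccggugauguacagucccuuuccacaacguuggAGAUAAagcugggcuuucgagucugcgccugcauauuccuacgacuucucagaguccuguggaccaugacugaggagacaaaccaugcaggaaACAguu

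The members were 97 to 246 nucleotides long, with a median of 133. ACA was found within the last 10 nucleotides of 149 of the 166, and in 117 of these it was followed by exactly 3 bases. ANANNA was found with its centre between 40 and 65% of the length in 154 members, and both boxes in 139. In 25991 other listed transcripts of at least 100 nucleotides, ACA was in the last 10 nucleotides of 12.9% against 89.8% of the members. A window of 33 start positions at the middle of these other transcripts held ANANNA in 45.7%, against 92.8% of the members, so the H box pattern alone is common. Both patterns were searched on the transcribed strand only. The minimum free energy fold of RNAfold had 2 separate hairpin domains in 127 members.

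By GENCODE vM1, 92 members lay in an intron of another gene on the same strand, 28 overlapped an exon of one, 15 lay opposite a gene and 31 outside genes. The 31 members with mixed-case symbols (Snora...) were all inside a gene on their strand, 19 in introns and 12 over an exon. Of the 135 with upper-case symbols (SNORA...), 31 were outside genes and 15 opposite one. The annotation holds 1031 genes with such symbols, so the files list 16.1% of them. SNORA32 and SNORA48 had 11 listed members each, and SNORA70, SNORA55 and SNORA36 had 5 each. A member is therefore named below with its chromosome where its symbol is shared, and with its position where copies share a chromosome.

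Copies share reads. Of the measured positions, 66.5% had following 25 bases that occur once in the genome, and these positions held 61.3% of the members' RT stops. All RT stops were at such positions in 34 members, and none in 5. The match was of exact bases, and copies had nearly the same counts at some positions found once. The first nucleotides of SNORA33 and Snora33, both found once, held 147 and 215 and 148 and 215 RT stops in CMCT. Values on positions found once therefore need not belong to a single copy. The median share was 87.2% in members with mixed-case symbols and 54.4% in those with upper-case symbols. Values of the SNORA32 and SNORA48 copies in particular cannot be told apart from one another, since how reads with several places were assigned is not given in the sources used here.

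The 6 libraries held 140186204 to 247369982 RT stops with each genomic position counted once per gene. H/ACA snoRNAs took 0.0341 and 0.0222% of these in the NT replicates, 0.0278 and 0.0682% in DMS, and 0.0352 and 0.0292% in CMCT. In counts, these were 61912 and 36129 RT stops in NT, 47329 and 105071 in DMS, and 87013 and 40928 in CMCT. DMS replicate 2 thus stood apart from all other libraries. Among members with at least 20 RT stops in both DMS replicates, 49 of 157 (31.2%) were over 2-fold higher in CPM (counts scaled to the total of the library, with TMM scaling) in replicate 2, and 1 was over 2-fold lower. The median log2 ratio of replicate 2 over replicate 1 was 0.54 for these members and 0.02 for all 13103 genes with that depth, of which 5.76% were over 2-fold higher. Box C/D snoRNAs, the other large class (symbols starting with SNORD), had a median of 0.64. The median for H/ACA snoRNAs was -0.01 in NT and -0.01 in CMCT.

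**Figure D1:**
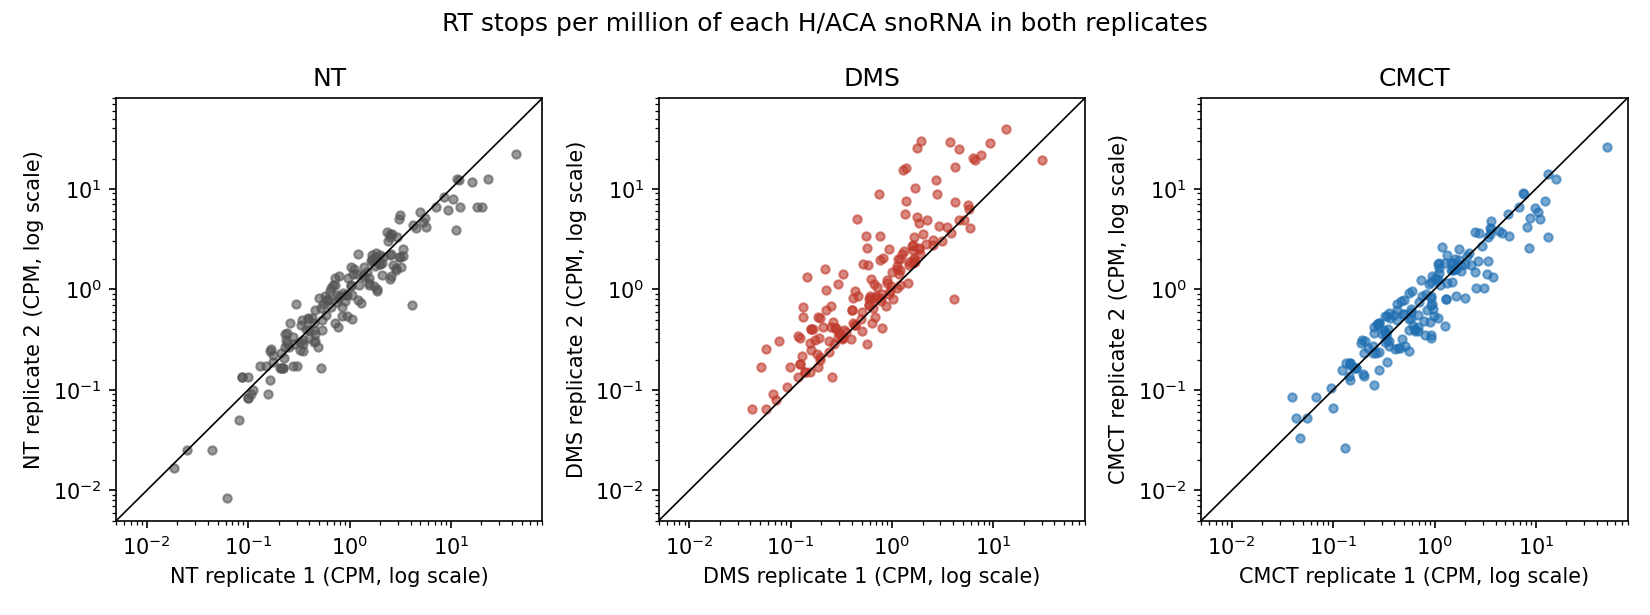
CPM of each of the 166 H/ACA snoRNAs in replicate 1 (x, log scale) and replicate 2 (y, log scale) of NT, DMS and CMCT, 1 point a snoRNA, with the line of equal values. In DMS, 49 of the 157 snoRNAs with at least 20 RT stops in both replicates lie over 2-fold above the line; in NT and CMCT 1 each does.

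Some counts were nearly equal between replicates. Both replicates of all 3 treatments differed by at most 1 count or 0.1 of the Poisson SD in 4 of the 147 members with at least 20 RT stops in each library (SNORA51, SNORA73, SNORA26 and SNORA36 copies), 2.72% against 5.62% of all genes. These are raw counts, and scaling to the libraries sets the replicates apart again. The SNORA51 copy outside genes, for example, had CPM of 0.588 and 0.782 in NT. The cause of the nearly equal counts was not tested. With 2 libraries a treatment, every test below rests on the spread between these 6 libraries.

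Levels spanned from 0.0818 to 38.9 RT stops per measured base as the mean of the 6 libraries, with a median of 1.42. The last 25 nucleotides carry no RT stop and are left out of the length. The median over members in single libraries was 1.24 and 0.944 in NT, 1.13 and 1.53 in DMS, and 1.90 and 0.890 in CMCT. The 10 members with the most RT stops held between 35.7 and 46.2% of all RT stops of the class in a library. Members with mixed-case symbols had a median of 2.95 and those with upper-case symbols 1.12.

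Snora81, in Eif4a2 on chromosome 16, had the highest mean. It had 45.9 and 17.6 RT stops per base in NT, 38.6 and 23.6 in DMS, and 82.1 and 25.8 in CMCT, so the NT and CMCT ranges overlapped. SNORA4 of the same host gene had 32.5 and 13.2 in NT, 15.6 and 46.7 in DMS, and 34.8 and 16.8 in CMCT. SNORA63 (known as E3), the copy in Eif4a2 whose sequence is shown, had 25.0 and 13.5 in NT, 11.7 and 36.3 in DMS, and 30.1 and 11.01 in CMCT. These 3 neighbours of 1 host gene, which were among the 4 highest members, overlapped between treatments and could not be ordered beyond the spread of replicates.

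Snora68 on chromosome 8 guides a change in 28S rRNA. It had 30.8 and 7.55 RT stops per base in NT, 24.6 and 69.2 in DMS, and 31.2 and 4.74 in CMCT. SNORA14 had 18 and 7.19 in NT, 13.4 and 37.6 in DMS, and 25.5 and 6.92 in CMCT. Snora64 (U64), a 28S rRNA guide, had 10.4 and 7.24 in NT, 8.22 and 42.4 in DMS, and 24.6 and 8.16 in CMCT. In these 3 members and in SNORA4 and SNORA63 of chromosome 16, DMS replicate 2 was the highest of the 6 libraries.

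SNORA51 of Nop56 on chromosome 2 had 12.6 and 9.22 in NT, 11.8 and 33.2 in DMS, and 20.3 and 7.24 in CMCT. SNORA4 on chromosome X, opposite a gene, had 18.6 and 9.15 in NT, 10.0 and 16.9 in DMS, and 21.5 and 12.4 in CMCT, with 51.7% of its RT stops at positions found once. SNORA32 on chromosome 12 had 5.19 and 6.77 in NT, 3.87 and 58.3 in DMS, and 4.804 and 2.75 in CMCT, and only 1.35% of its RT stops were at positions found once. Snora23, in an intron of Ipo7, an import receptor gene, had 18.01 and 4.97 in NT, 7.09 and 7.50 in DMS, and 20.9 and 13.3 in CMCT. Of these 10 members, only Snora23 had both DMS replicates within 1.5-fold of each other per base.

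**Figure D2:**
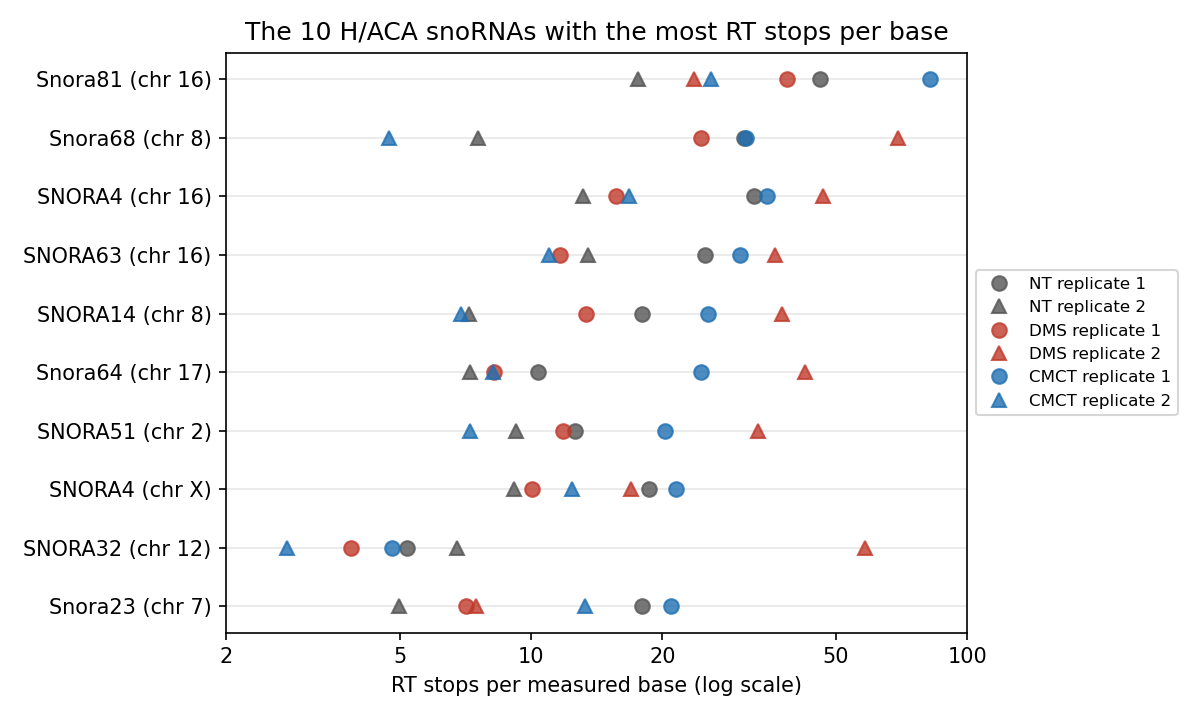
RT stops per measured base (log axis) of the 10 H/ACA snoRNAs with the highest means, in order of the mean from the top; circles are replicate 1 and triangles replicate 2 of NT (grey), DMS (red) and CMCT (blue). DMS replicate 2 lies far right of DMS replicate 1 in most rows, such as SNORA32 with 58.3 against 3.87, but not in Snora81 or Snora23.

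In RNA-seq, 143 members held the midpoint of at least 1 of the 31857551 alignments, with a median of 86.5 and a maximum of 10966 (Snora73b). Across the 166 members, Spearman's rho between alignments per base and RT stops per base lay between 0.45 (DMS replicate 2) and 0.58 (NT replicate 1). Over the 119 members with at least 50% of positions found once, it lay between 0.49 (CMCT replicate 2) and 0.66 (NT replicate 1). These are descriptions across snoRNAs, which share libraries and in part reads, and an alignment of 50 bases can also stem from the host transcript. The strand of alignments was not used, so those of a gene on the opposite strand were counted too.

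RT stops per gene were compared between DMS and NT to ask whether treatment changed the number of RT stops on these RNAs. In bulk samples, a change in the number of RT stops and a change in the amount of RNA cannot be told apart. Of the 166 members tested, 13 rose and 20 fell in DMS (edgeR quasi-likelihood test, Benjamini-Hochberg adjusted over 13216 genes, threshold 0.05). Over all genes, 13.8% were higher and 12.5% lower, so the 33 members called in this fit are no larger a share than in genes at large. The median log2 change of members was 0.07, beside 0.01 for all genes. With the size factors of DESeq2, 7 members were higher and 21 lower, beside 1778 and 1484 of the 13216 genes. The counts rested on single libraries, and the median log2 change of members moved with them. It was 0.15 without the first NT library and 0.03 without the second, beside 0.09 and -0.04 for all genes. Without the first DMS library it was 0.31, and without the second -0.52, beside -0.06 and -0.11 for all genes. On positions found once, 3 of 139 members were higher and 6 lower, beside 726 and 298 of 11522 genes.

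The largest rise was that of Snora62 (E2), a 28S rRNA guide in an intron of Rpsa. Its CPM were 2.55 and 2.26 in NT and 3.70 and 29.2 in DMS, a log2 change of 2.77 ± 0.66 (SE, adjusted p = 0.00777 by edgeR). Both DMS values were above NT, and they differed from each other far more than the NT values did. Its first nucleotide alone held 31 and 30 RT stops in NT, 256 and 4371 in DMS, and 520 and 371 in CMCT. From position 3 onward, Snora62 had 3.08 and 1.97 RT stops per base in NT and 3.65 and 6.56 in DMS, and in CPM the treatments overlapped.

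SNORA9 on chromosome 11 had CPM of 2.88 and 1.56 in NT and 4.16 and 16.5 in DMS (log2 change 2.22 ± 0.53, adjusted p = 0.00796 by edgeR). Without its first 2 nucleotides, its DMS libraries stayed above NT. The other 3 of the 5 largest rises were at low counts: SNORA36 on chromosome 10 (log2 2.51), Snora36b (2.44) and SNORA67 at chr11:62590487-62590627 (2.33), each at most 0.443 RT stops per base in every library. Without the first 2 nucleotides, DMS and NT overlapped in SNORA36 and SNORA67. Of the 13 members called higher, 7 had DMS libraries apart from NT without their first 2 nucleotides, and of the 20 called lower, all did. With all nucleotides, and called or not, DMS libraries lay above NT in 29 members and below in 48. How many of all genes had libraries apart was not counted.

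Among members that fell, SNORA51 on chromosome 2 outside genes (chr2:53952841-53952973, +) had CPM of 0.588 and 0.782 in NT and 0.139 and 0.149 in DMS. Its log2 change was -2.24 ± 0.39 (adjusted p = 0.00162 by edgeR), and it is one of the members with nearly equal raw counts in the replicates. SNORA84 on chromosome 16 had a log2 change of -2.03 at no more than 0.574 RT stops per base. SNORA48 copies at chr2:85260294-85260437, at chr11:51551281-51551424 (in Sec24a) and on chromosome 13 had log2 changes of -1.72, -1.59 and -1.45. The copy in Sec24a had CPM of 2.94 and 3.32 in NT, 0.988 and 1.083 in DMS, and 1.73 and 2.54 in CMCT, so the DMS libraries lay below all others. The SNORA51 and Sec24a copies were past the threshold in every alternative run, SNORA48 on chromosome 13 had only 13.6% of its RT stops at positions found once, and these copies are not independent.

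U17 fell in DMS in both of its genes in Rcc1. Snora73a had CPM of 11.4 and 12.4 in NT, 5.11 and 4.93 in DMS, and 7.48 and 9.14 in CMCT. Snora73b had 12 and 12.2 in NT, 4.62 and 4.89 in DMS, and 7.61 and 8.79 in CMCT. The log2 changes in DMS were -1.24 ± 0.24 and -1.35 ± 0.23 (adjusted p = 0.0022 and 0.00148 by edgeR). In CMCT they were -0.52 and -0.56 and did not pass (adjusted p = 0.119 and 0.0846). In both U17 genes, the DMS replicates differed from each other by far less than from NT. Snora73a and Snora73b shared most reads, with 29.6 and 32.4% of RT stops at positions found once, and had 9824 and 10966 RNA-seq alignments.

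In CMCT against NT, 8 members rose and 6 fell. Over all genes, 15% were higher and 13.9% lower, so 14 of 166 members are no larger a share. Both comparisons share the NT libraries. The median log2 change of members was -0.23 beside 0.11 for all genes. With the size factors of DESeq2, the median of all genes moved to 0.01 and that of members to -0.31. There were 5 members higher and 8 lower, beside 1537 and 1163 of 13216 genes, so the balance of the members' calls turned with the scaling. The DESeq2 test gave 6 higher and 25 lower, beside 2554 and 2377 of 13218 genes. The counts of calls also moved with each library left out. Without the first NT library, the median log2 change was -0.03 in members and 0.19 in all genes, and without the second -0.30 and 0.06. Without the first CMCT library the medians were -0.34 and 0.16, and without the second -0.14 and 0.03. On positions found once, 2 of 139 members were higher and 3 lower, beside 503 and 130 of 11522 genes.

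SNORA33 on chromosome 12 outside genes rose most in CMCT, with CPM of 0.257 and 0.458 in NT and 1.19 and 2.64 in CMCT (log2 2.43 ± 0.55, adjusted p = 0.00606 by edgeR). Its first nucleotide held 3 and 2 RT stops in NT and 147 and 215 in CMCT, nearly the counts of Snora33 on chromosome 10 (148 and 215 in CMCT), and from position 3 the log2 change was 1.38 with the libraries still apart. SNORA4 on chromosome 9 had 0.275 and 0.3328 in NT and 1.079 and 1.80 in CMCT (log2 2.24 ± 0.36, adjusted p = 0.00116 by edgeR) and was past the threshold in every alternative run. Its raw values were 3.21 RT stops per base in each CMCT replicate. Its G38 alone held 7 and 7 RT stops in NT and 170 and 169 in CMCT. SNORA4 on chromosome X had nearly the same counts at its G34, with 7 and 7 in NT and 171 and 171 in CMCT. Both positions were found once, so the alternatives did not set these copies apart. Snora16a, in an intron of Snhg12, a host gene of several snoRNAs, had 1.65 and 1.99 in NT and 8.18 and 4.17 in CMCT (log2 1.77 ± 0.47, adjusted p = 0.0143 by edgeR). From position 3 onward its log2 change was 0.53 and the libraries overlapped. Without the first 2 nucleotides, 7 of the 8 members called higher and the 6 called lower had CMCT libraries apart from NT. The 5 largest rises also held SNORA73 on chromosome 15 (1.83) and SNORA2 on chromosome 16 (1.66).

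The 5 largest drops in CMCT were smaller, with log2 changes of -1.48 for SNORA5 on chromosome 14, -1.21 for SNORA71 at chr2:158185534-158185665, -1.20 for Snora44, -1.03 for SNORA38 on chromosome 10 and -0.999 for SNORA17 on chromosome 16. Snora44, which like Snora16a lies in Snhg12, had CPM of 1.86 and 0.998 in NT and 0.684 and 0.559 in CMCT. SNORA71, an 18S rRNA guide, had 0.845 and 0.674 in NT and 0.340 and 0.316 in CMCT. In both, the CMCT libraries lay below NT. All 14 members called in CMCT had treated libraries apart from NT, and so had the 33 called in DMS. Being apart was common among members, called or not. CMCT libraries lay above NT in 33 members and below in 57, and DMS libraries in 29 and 48. The share of all genes with libraries apart was not counted, so these counts are not read as a trait of the class. Of the 22 calls named here, 15 were lost without NT replicate 1 and 14 without NT replicate 2.

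Of a list of 12 genes for the H/ACA ribonucleoprotein, its assembly and the processing of its RNAs, Shq1 and Terc were not among the transcripts used here. The other 10 had a median log2 change of -0.07 in DMS and adjusted p of 0.15 (Gar1) or more by edgeR, and 1 of 10 rose in CMCT, beside 15% of all genes. This was Naf1, an assembly factor, with a log2 change of 0.72 (adjusted p = 0.0344 by edgeR). The mRNA of Dkc1, the pseudouridine synthase, had 1.42 and 1.19 RT stops per base in NT, 1.56 and 1.74 in DMS, and 2.30 and 1.51 in CMCT. Of 21 scaRNAs, which guide changes in spliceosomal RNAs in Cajal bodies, 3 rose and 3 fell in DMS, beside 13.8 and 12.5% of all genes, and 2 rose in CMCT. Of 134 box C/D snoRNAs, 2 rose and 44 fell in DMS (median log2 -0.57), and 22 rose and 14 fell in CMCT (median 0.18). The difference between the classes was not tested.

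Positions were examined in the 41 members with at least 5 RT stops per base in each treatment, which carry 31 symbols. Of these, 35 had both boxes and 33 folded into 2 hairpin domains. A, C, G and U were 23.3, 23.9, 24.6 and 28.2% of their measured positions. A took 14.8 and 18.8% of the RT stops of a member on average in the NT replicates, 27.1 and 46.9% in DMS, and 14.2 and 13.7% in CMCT. U took 34.4 and 36.4% in NT, 27.7 and 15.7% in DMS, and 48.1 and 48.7% in CMCT. C took 38.7 and 31.0% in NT, 35.8 and 28.1% in DMS, and 22.6 and 23.4% in CMCT, and G 9.22 to 15.1% in any library. A was thus higher in both DMS libraries than in the other 4, and U higher in both CMCT libraries. C was not raised in DMS. With 2 libraries against 2, an exact permutation test cannot pass a threshold of 0.05, so none was made.

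The gap between the DMS replicates was also one of bases. In 4217 genes of the same depth, the mean share of A was 26.5 and 32.2% in DMS replicates 1 and 2, against 27.1 and 46.9% in the H/ACA snoRNAs. In 39 box C/D snoRNAs it was 27.1 and 34.8%. In single members of the class, the most stopped position was an A in 6 of 41 in DMS replicate 1 and in 22 of 41 in DMS replicate 2. It was a U in 26 and 22 of 41 in CMCT, and in NT a C in 25 and 15 of 41 and a U in 9 and 21, so that NT replicate 2 was close to CMCT in this count.

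That position held a median of 20.3 and 15.2% of a member's RT stops in NT, 17.1 and 13.3% in DMS, and 18.5 and 20.8% in CMCT. The first nucleotide held a median of 0.0349 and 0.266% in NT, 0.610 and 1.97% in DMS, and 0.581 and 0.425% in CMCT. It held at most 11.03% in NT but up to 79.9% in DMS and 56.7% in CMCT, each of these in Snora62. Along the measured length, RT stops were few near the 3′ end: the last 10% of it held 0.342 to 0.854% of a member's RT stops on average, and the first 10% held 15.3 to 22.7%. The 10% just past the middle held 17.1 and 12.7% in NT, 16.3 and 14.1% in DMS, and 20.9 and 16.5% in CMCT.

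**Figure D3:**
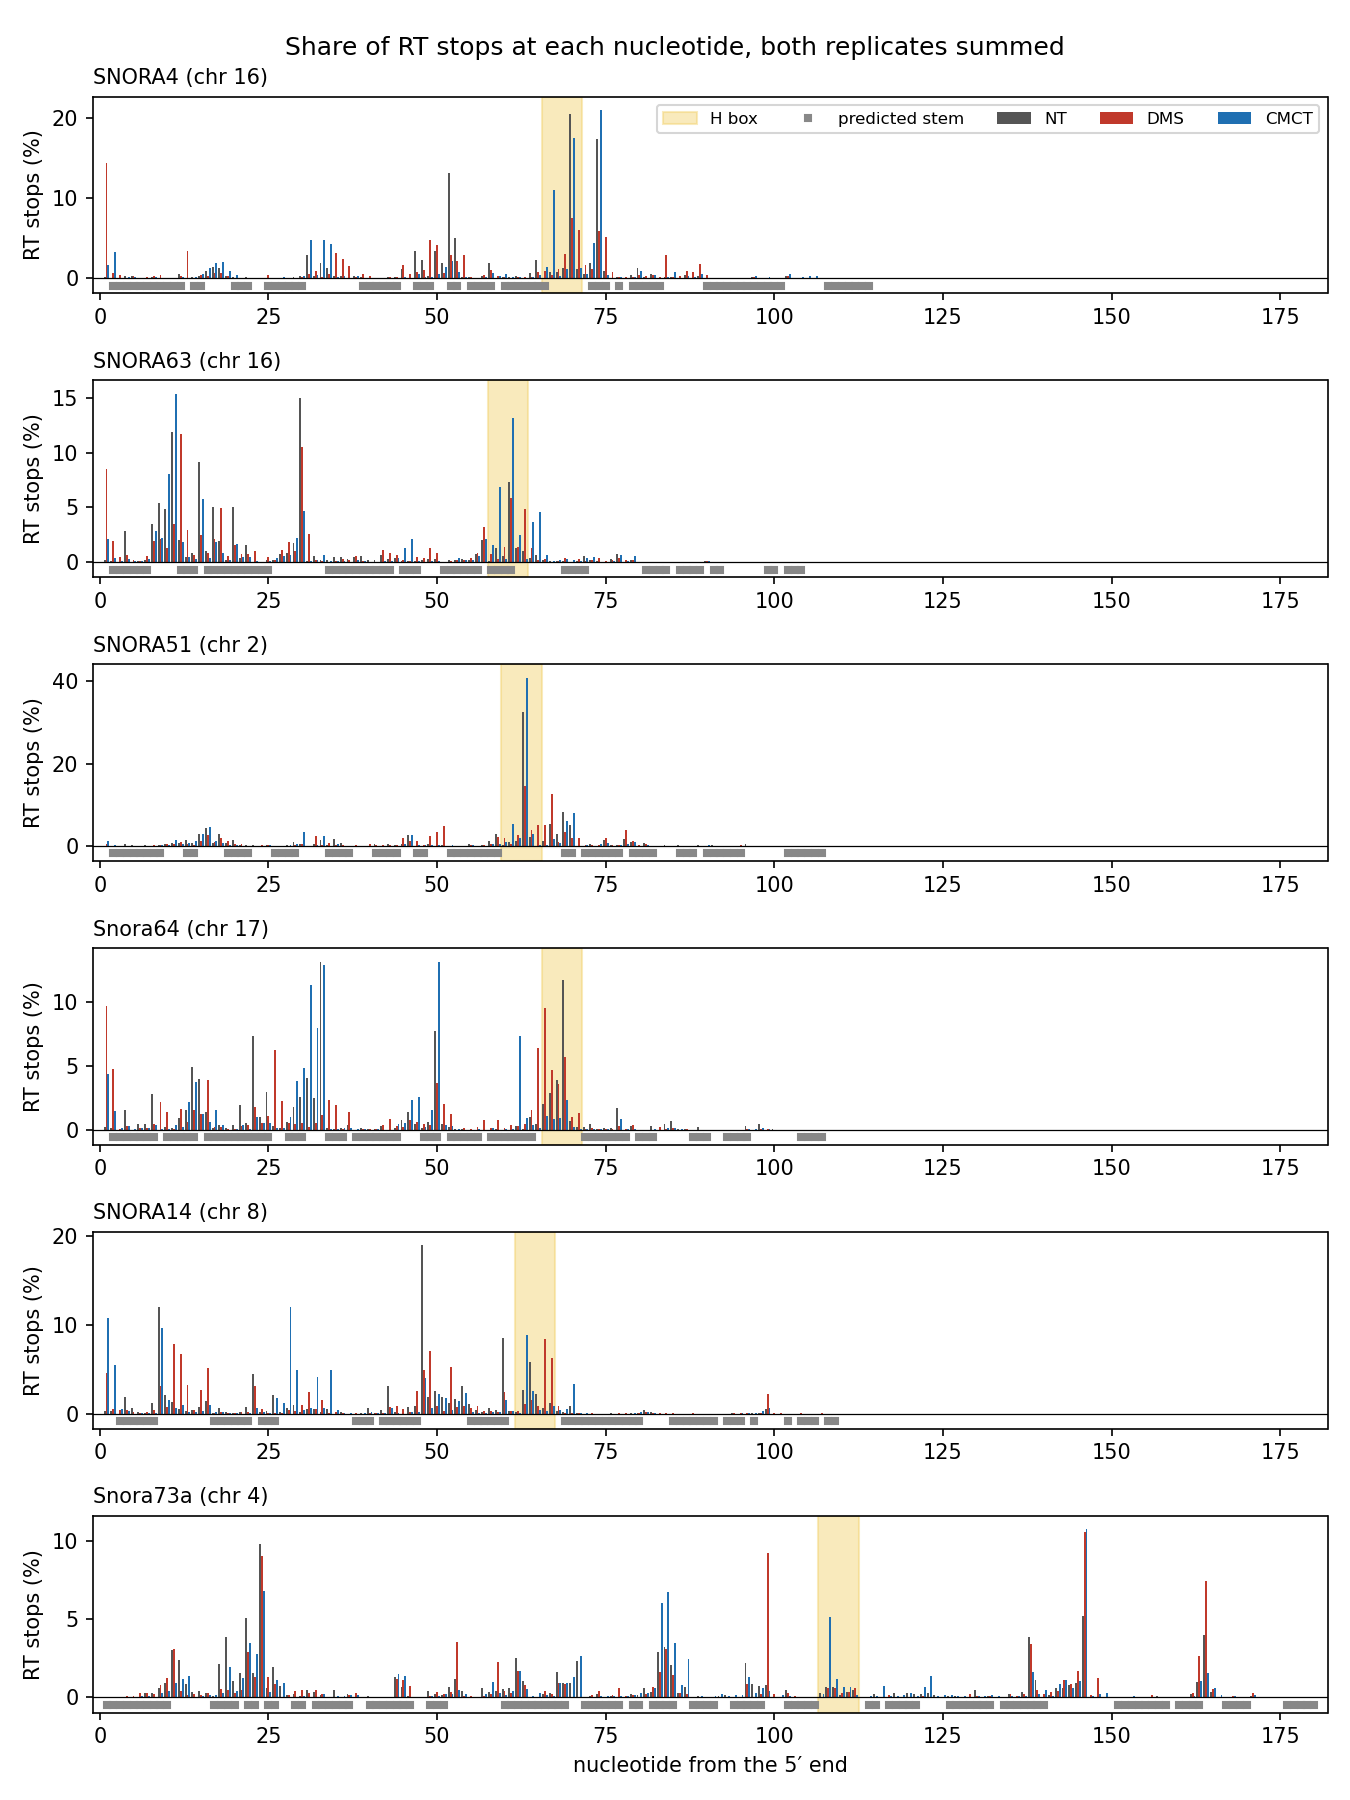
Share of the RT stops of 6 H/ACA snoRNAs (y, %, replicates summed) at each measured nucleotide (x) in NT (grey), DMS (red) and CMCT (blue); the yellow band is the H box and grey squares mark predicted stems. CMCT bars stand at the second base of the H box in SNORA4 (411 and 231 RT stops), SNORA63, SNORA51, SNORA14 and Snora73a.

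Single positions were then tested against NT relative to the RT stops of the whole gene, so that a change of the whole gene is removed. Of 770 positions in 115 members with at least 100 RT stops over the 6 libraries, 60 were higher and 33 lower in DMS (edgeR, adjusted over 469748 positions). Over all positions, 13.7% were higher and 8.63% lower, beside 7.79% and 4.29% of the members' positions, a difference that was not tested. The sets differ: 68176 of the 469748 positions were found once, against 439 of the members' 770. On positions found once, 8341 of all were higher and 7914 lower, beside 34 and 21 of the members' 439. Of the 60, 38 were at A (of 235 tested), 14 at C (of 203), 8 at U (of 245) and none at the 87 G tested. The share called at A was 16.2% in members and 36.9% over all positions, at C 6.90 and 8.39%, and at U 3.27 and 4.33%, and 5.12% of all G were called. A position that reached 100 RT stops only through the treated libraries had to be high in them. Of the 60 higher positions 16 had 100 RT stops in the other 4 libraries, as had 30 of the 33 lower and 426 of the 770 tested, so the counts of higher positions here and by base and region below were in part set by this filter. With the library size in place of the RT stops of the gene, 53 were higher and 98 lower, so the balance turned with the scaling. Over all 469748 positions, 77281 were higher and 58417 lower with it. Copies were counted separately: the 60 positions had 53 different 25-base reads, and 7 of them had nearly equal replicates (6.88% of the members' positions, 18.8% of all tested). Without either NT replicate, 0 of 770 positions passed in edgeR (163 without replicate 1 and 152 without replicate 2 at unadjusted p under 0.05), as for all positions. The counts also moved without either DMS replicate. Without replicate 2, the median log2 change was 0.02 at members' positions and -0.04 at all, and without replicate 1 -0.55 and -0.15.

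In CMCT, 46 positions of members were higher and 15 lower, beside 5.64 and 5.33% over all positions. On positions found once, 39 of the members' 439 were higher and 9 lower, beside 5473 and 6593 of all 68176. Of the 46, 18 were at U (of 245), 15 at G (of 87), 9 at C and 4 at A. U was called in 7.35% of members' positions and 9.13% of all, G in 17.2% against 3.04%, C in 4.43% against 4.1% and A in 1.70% against 5.3%. Of the 46, 12 had 100 RT stops in the 4 libraries other than CMCT, as had 14 of the 15 lower. The G called higher reached 100 RT stops only through the CMCT libraries, so the share at G was largely set by this filter. The 46 positions had 41 different reads, and 10 had nearly equal replicates. Without NT replicate 1, 0 positions passed by edgeR (140 at unadjusted p under 0.05), and without NT replicate 2, 2 were higher. Without CMCT replicate 1, the counts fell and the median log2 change was -0.35 at members' positions and -0.06 at all. Without CMCT replicate 2 the counts fell further, with medians of -0.26 and -0.08.

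The first nucleotide of the RNA was tested in 23 members and was higher in 11 in DMS and in 8 in CMCT, beside 13.7 and 5.64% of all positions. First nucleotides of other RNAs were not counted. With few RT stops in NT, many first nucleotides reached 100 RT stops only through the treated libraries, so their direction was largely set by this filter. These calls are not all separate: SNORA33 on chromosome 12 and Snora33 on chromosome 10 had nearly the same counts at this base and are both among the 11 and the 8. In Snora16a, where it is a U, it held 45 and 45 RT stops in NT, 269 and 961 in DMS, and 1254 and 375 in CMCT, and passed in both (log2 1.59 and 1.74, adjusted p = 0.00766 and 0.00759 by edgeR). In Snora64, where it is an A, it held 2 and 2 in NT, 40 and 495 in DMS, and 139 and 16 in CMCT, and passed in DMS (log2 5.15, adjusted p = 0.0262 by edgeR). In SNORA4 of chromosome 16, where it is a G, it held 4 and 4 in NT, 21 and 997 in DMS, and 76 and 19 in CMCT, and did not pass (adjusted p = 0.0779 and 0.263 by edgeR). The treated libraries lay above NT in each of these 3 members. The bases that passed were 6 A, 3 C and 2 U in DMS, and 3 A, 2 C and 3 U in CMCT.

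In the hinge, single bases of the H box had median ratios over NT above those around the box. In the 39 members with an H box and a profile, the median log2 ratio of CMCT over NT at its second base was 1.85 in replicate 1 and 1.65 in replicate 2, above 0 in 35 and 30 members. This base is not fixed by the pattern and was a G in 26 of the 39. At the first base the medians were 0.33 and 0.39, and at the third -0.25 and -0.17, both bases being A. In DMS, the sixth base, always an A, had medians of 1.46 and 1.09 and was above 0 in 32 and 29 members. The base just before the box had DMS medians of 0.57 and 1.20, above 0 in 27 and 25 members, so in replicate 2 it was above the sixth base. Without the box, the base before it and the 7th to 9th bases, 26 positions remained around it. Their medians ran from -0.16 to 0.57 in DMS replicate 1 and from -1.31 to 0.38 in replicate 2. In CMCT they ran from -0.94 to 0.16 and from -0.95 to 0.30. In DMS replicate 1, a ratio above 0 was common around the box as well. The middle of these medians was 0.38 there, and the 19th base was above 0 in 30 of 38 members. The base before the box thus stood above its surroundings in DMS replicate 2 only. The third base, also an A, had only 0.31 and 0.59, and the first 0.40 and 0.17. The 8th and 9th bases counted from the start of the H box had CMCT medians of 0.71 and 0.42, and of 0.70 and 0.65, and the 9th was a U in 22 members. The H box was chosen, where several matches lay in the window, as the one with most unpaired bases in the predicted fold. With the pseudocount of 1, a base without RT stops in either library took a value set by the scaling of its RNA. In DMS replicate 2, the same median of -0.82 recurred at several positions. The level around the box may in part be set this way.

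**Figure D4:**
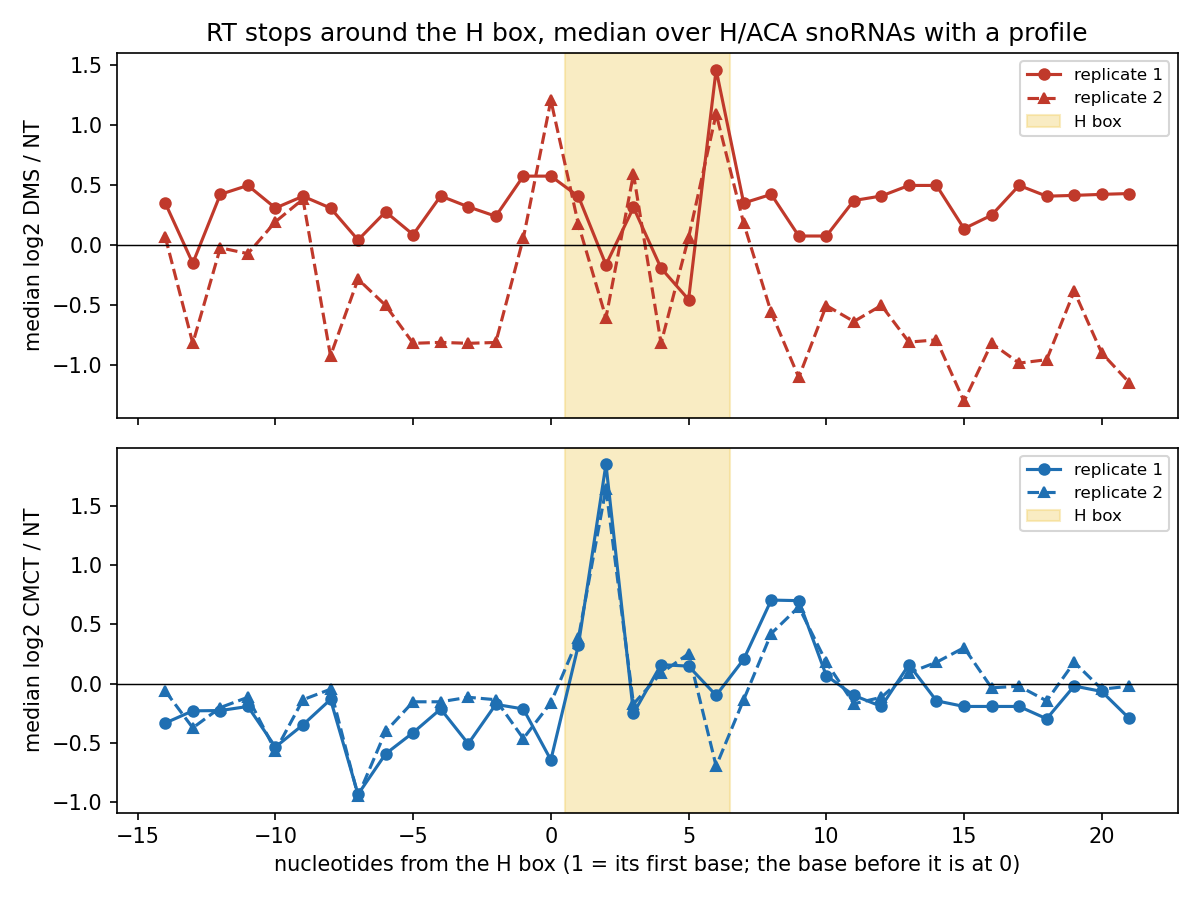
Median log2 ratio of treated over NT RT stops (y) around the H box (yellow, positions 1 to 6 on x) in 39 H/ACA snoRNAs, DMS above and CMCT below, with replicate 1 as circles and replicate 2 as triangles. CMCT is highest at the second base (1.85 and 1.65) in both replicates. DMS is highest at the sixth base in replicate 1 (1.46), and in replicate 2 at the base before the box (1.20), followed by the sixth (1.09).

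Single members show the counts behind this. None of the 13 H box positions higher in CMCT and 1 of the 6 higher in DMS had 100 RT stops in the other 4 libraries, so such positions are described by their counts, with no p. At G67 of SNORA4 on chromosome 16 (the second base of AGAAUA), there were 21 and 16 RT stops in NT, 5 and 19 in DMS, and 411 and 231 in CMCT. At A71, the sixth base, there were 42 and 17 in NT, 57 and 372 in DMS, and 44 and 28 in CMCT (log2 2.18 in DMS, adjusted p = 0.0372 by edgeR), and the read at this base has 2 places in the genome. Both CMCT libraries were thus above all others at G67, and both DMS libraries above all others at A71. At U70 between them, RT stops were many without any treatment, with 884 and 181 in NT, and neither treatment passed.

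The same AGAAUA in SNORA51 of Nop56 had 9 and 11 RT stops at G61 in NT, 4 and 18 in DMS, and 116 and 41 in CMCT. At its A65 there were 0 and 1 in NT, 50 and 200 in DMS, and 3 and 1 in CMCT. In SNORA63, where the fold pairs the second base of AGAAUA, G59 had 25 and 27 in NT and 181 and 114 in CMCT (log2 2.46) and A63 had 19 and 22 in NT and 58 and 183 in DMS (log2 2.10), with adjusted p of 0.0709 and 0.077 by edgeR. These did not pass, although the treated libraries lay above NT in each case.

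In SNORA14 (AGACAA), A66 had 11 and 7 RT stops in NT, 89 and 380 in DMS, and 7 and 4 in CMCT, and A67 17 and 15, 76 and 273, and 22 and 9. Its G63 had 60 and 12 in NT and 216 and 95 in CMCT and did not pass (adjusted p = 0.166 by edgeR). In Snora64 (AAACGA), A66 had 18 and 21 in NT and 49 and 476 in DMS (log2 1.92, adjusted p = 0.0838 by edgeR). In U17, G108 of Snora73a (AGAUAA) had 13 and 9 in NT, 6 and 6 in DMS, and 94 and 76 in CMCT. The same base of Snora73b had 16 and 12, 6 and 7, and 94 and 75.

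Bases outside the hinge also differed between treatments. In Snora73a, A99 in an internal loop had 13 and 14 RT stops in NT, 88 and 90 in DMS, and 7 and 6 in CMCT. In the loop of the 5′ hairpin of SNORA14, U28 had 9 and 7 in NT, 3 and 18 in DMS, and 352 and 74 in CMCT. In Snora64, U31 in the loop of the 5′ hairpin had 38 and 40 in NT and 317 and 88 in CMCT without passing, and fell in DMS with 4 and 6 (log2 -4.22, adjusted p = 0.0179 by edgeR). In Snora23, U21 rose in CMCT from 149 and 34 in NT to 626 and 439 (log2 2.05, adjusted p = 0.0119 by edgeR). Its U19 and U20, which the fold places in a stem, had 37 and 8, and 18 and 6 in NT, and 217 and 166, and 177 and 133 in CMCT.

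By region of the predicted fold, positions were higher in DMS at 19 of 139 outside the hairpins (13.7%), 25 of 257 in internal loops and bulges (9.73%), 5 of 106 in hairpin loops (4.72%) and 11 of 259 in stems (4.25%). Over all positions tested it was 13.7%, the same as outside the hairpins. Lower calls in DMS were made at 1 of 139 outside the hairpins, 10 of 257 in internal loops, 10 of 106 in hairpin loops (9.43%) and 12 of 259 in stems (4.63%), beside 8.63% of all positions. In CMCT, positions were higher at 17 of 139 outside the hairpins (12.2%), 5 of 257 in internal loops and bulges (1.95%), 10 of 106 in hairpin loops (9.43%) and 14 of 259 in stems (5.41%), beside 5.64% of all. Of the 15 lower calls in CMCT, 12 were in stems (4.63% of 259, beside 5.33% of all positions). The positions outside the hairpins include first nucleotides and bases of the H box. Within the H box, 6 of 96 positions were higher in DMS, all of them among the 44 A tested (13.6%, beside 16.2% of A in members and 36.9% of all A). In CMCT, 13 of 96 were higher (13.5%, beside 5.97% of the members' positions). None of these 13, and 1 of the 6 in DMS, had 100 RT stops in the other 4 libraries, so these shares were largely set by the filter.

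Reactivity was then taken as the log2 ratio of treated to NT, with values below 0 set to 0 and the top Winsorised at the 90th percentile of each RNA, and the larger of DMS and CMCT was used. It could be computed for 39 members. The median over members of the mean reactivity was 0.308 in stems, 0.422 in hairpin loops, 0.421 in internal loops and bulges, 0.613 outside the hairpins and 0.604 in the H box. H box bases that the fold leaves outside the hairpins are counted in both of the last sets, which therefore overlap. Internal loops were above the stems of the same RNA in 37 of 39 members, hairpin loops in 31 of 39, positions outside the hairpins in 34 of 37 and the H box in 34 of 38. The H box stayed above the stems in 36 of 38 members with replicate 2 alone and in 33 of 39 with replicate 1 alone. Its pattern makes it rich in A, so this comparison is not between like bases. Hairpin loops exceeded the stems in only 26 of 40 members with replicate 1 alone. With DMS alone, hairpin loops were above stems in 15 of 39 members (median difference -0.05), but the direction turned with the replicate, with 16 of 40 in replicate 1 (-0.03) and 24 of 39 in replicate 2 (0.04). With CMCT alone, hairpin loops were above stems in 34 of 39 members (0.12).

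SNORA14 had means of 0.205 in stems, 0.352 in internal loops, 0.776 in hairpin loops and 0.573 in the H box. In Snora73a these were 0.371, 0.382, 0.575 and 0.561. SNORA55 at chr4:122968587-122968717 had the highest H box value, 0.953, with 0.165 in its stems. Snora68 and SNORA4 on chromosome X went the other way, with 0.149 and 0.147 in the H box and 0.213 and 0.371 in stems. SNORA55 was chosen for its value after the values were seen.

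**Figure D5:**
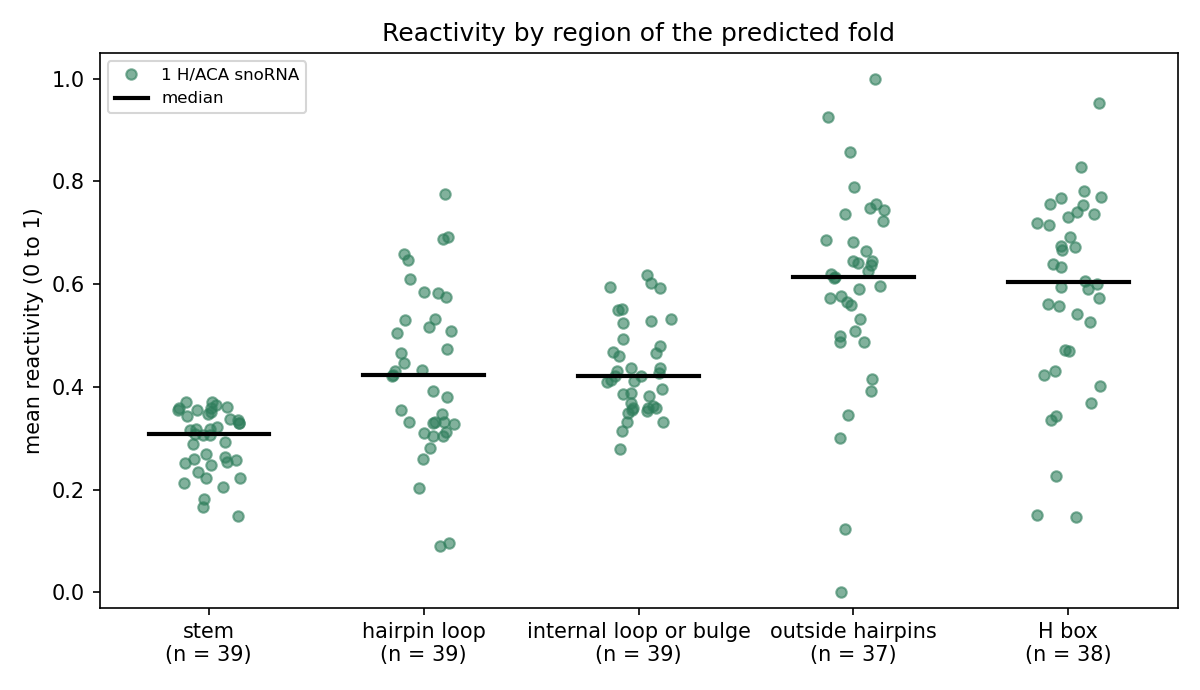
Mean reactivity (y, 0 to 1) of each H/ACA snoRNA (1 point) in the regions of its predicted fold, with the median as a black line. Stems have a median of 0.308, loops of about 0.42, the H box of 0.604, and all positions outside hairpins of 0.613. H box bases that lie outside hairpins are counted in both of the last sets.

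Since regions differ in their bases, each base was also compared with itself, leaving out the first 2 nucleotides. The mean log2 ratio of DMS over NT at A was higher outside stems than in stems in 30 of 40 members, with medians of 1.35 and 0.96, and in 30 of 40 with either replicate alone. At C it was higher outside stems in 28 of 39 members, but in 20 of 39 with replicate 1 alone and 30 of 39 with replicate 2. For CMCT, U was higher outside stems in 34 of 40 members, with medians of 0.72 and -0.09, and in 33 and 31 of 40 with replicates 1 and 2. G was higher in 28 of 37, with medians of 0.57 and -0.37, and in 28 of 37 with either replicate alone. Among single positions in CMCT, 12 of 126 U or G in stems (9.52%) and 21 of 206 outside stems (10.2%) were higher, with median log2 changes of -0.10 and 0.32, beside 9.13% of all U and 3.04% of all G. The G called among these passed the filter on RT stops only through the CMCT libraries. In DMS, 4 of 48 A in stems (8.33%) and 34 of 187 outside stems (18.2%) were higher, with median log2 changes of 1.65 and 1.58, beside 36.9% of all A. A in predicted stems thus also had DMS ratios above NT. At the 44 A tested in the H box, the median log2 change in DMS was 1.22, below that of A in stems and outside them.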

How the data were processed

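The authors deposited raw counts of RT stops per transcript position for 2 NT, 2 DMS and 2 CMCT libraries, and RNA-seq alignments of 1 library, deposited without a normalized value. The submitters' processing notes name Bowtie 1.0.0, bedtools 2.17.0, FastQC 0.10.1, TopHat2 2.0.6 and mm9. The study's methods give as target an mm9 genome changed to the E14 sequence. Treatment of reads with several places is not given in the sources used here.

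Positions were placed on GENCODE vM1 (26792 of 26827 transcripts), with each genomic position counted once per gene. Genes and positions (at least 100 RT stops) entered edgeR 4.0.16 (R 4.3.3) as 1 fit of all 6 libraries (TMM, filterByExpr; for positions, an offset of the gene's RT stops), adjusted over the whole table at 0.05. DESeq2 1.42.0 was an alternative. The fits were tested on simulated data. Reactivities used a pseudocount of 1, with each RNA scaled to its mean, and folds came from RNAfold 2.7.2. Python 3.11.15, numpy 2.4.6, pandas 2.3.3 and matplotlib 3.10.9 were used. Combined replicate tables were not used.

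The members and gene lists were chosen with earlier results of these data known. Named were the 10 members with the highest mean RT stops per base, the 5 largest rises and 5 largest drops per comparison past the threshold with libraries apart, U17, and for sequences the 6 members deepest in their lowest library with both boxes, 1 per symbol. Alternatives were other scaling, tests, filters and depths, each replicate left out, a replicate block and positions found once. Those on near-equal counts, shared reads, first nucleotides and members mostly found once were chosen after seeing the data.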

Additional observations from a re-analysis of the deposited data

How the results depend on the processing

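Across alternatives, none of the 22 named gene-level changes turned direction, and 58 of their 195 values lost the call, mostly on positions found once (13 of 19) and without an NT replicate. Members higher in DMS numbered 13, from 1 to 24 with each replicate left out, 7 with DESeq2 size factors, and 3 on positions found once. Of the 13, 7 had libraries still apart without the first 2 nucleotides, with no new fit. Calls over all genes also moved with each replicate left out. Members lower in DMS numbered 20, from 6 to 35 with each replicate left out and 6 on positions found once. In CMCT, 8 were higher (2 to 17 with replicates left out, 5 with DESeq2 size factors, 2 on positions found once) and 6 lower (0 to 17 with replicates left out; 25 by the DESeq2 test; 3 on positions found once).

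Positions of members higher in DMS numbered 60, from 0 to 55 with replicates left out, 22 of the 231 tested with at least 300 RT stops and 34 of the 439 found once, so these fits tested fewer positions. Lower ones numbered 33, from 0 to 35 with replicates left out, 8 with at least 300 RT stops, 21 found once and 98 with the library size in place of the gene's RT stops. In CMCT, 46 were higher (0 to 17 with replicates left out, 19 with at least 300 RT stops, 36 without positions with nearly equal replicates) and 15 lower (0 to 3 with replicates left out, 3 with at least 300 RT stops, 9 found once). The loss of position calls without an NT replicate held for all positions in DMS, and the cause was not tested.

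Replicate numbers are shared between treatments, but nothing says that they mark a common lysate. The deviations of same-numbered libraries had a correlation over all genes of 0.55 for the NT and DMS pair, -0.03 for NT with CMCT, and -0.13 for CMCT with DMS. Over 147 members these were 0.30, 0.48 and -0.23. With the number as a replicate block, 34 members were higher and 28 lower in DMS, and 18 and 32 in CMCT, while over the 13216 genes tested 2598 and 3018 were called in DMS and 2680 and 2350 in CMCT. The replicate block moved no position count past 1.5 times.

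The excess over stems was 0.124 in hairpin loops, 0.197 with a pseudocount of 5 and 0.0948 to 0.173 with a replicate left out, but -0.0459 with DMS alone. In internal loops it was 0.147, with 0.114 to 0.140 with a replicate left out, 0.21 at 20 RT stops per base, 0.0966 with DMS and 0.0492 with CMCT alone. Outside hairpins it was 0.3328 (0.264 to 0.337 with a replicate left out; 0.394, 0.244, 0.24 and 0.176 under the other 4), and in the H box 0.329 (0.255 to 0.331; 0.432, 0.253, 0.170 and 0.204). U in CMCT took 48.4% of RT stops, 50.2% when summed and 46.1% without the most stopped position, and G took 14.7, 18.1 and 17.4%. On positions found once, the median RT stops per base were 0.744 against 1.09 in NT and 0.870 against 1.33 in DMS.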
